A study of Mus musculus with 9 samples.

Results

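The 36 genes described here carry glucose into the cell, through glycolysis to pyruvate and lactate, into and out of glycogen, and on to the mitochondrial entry of pyruvate. They were taken as a list of symbols: 2 glucose transporters, 2 hexokinases, glucose-6-phosphate isomerase, 3 phosphofructokinases, 3 bifunctional enzymes that set fructose-2,6-bisphosphate, 2 aldolases, the single genes of the next steps, 3 enolases, pyruvate kinase, 2 lactate dehydrogenase subunits, 2 monocarboxylate transporters, 3 pyruvate dehydrogenase kinases, 3 subunits of the pyruvate dehydrogenase complex, 2 mitochondrial pyruvate carrier subunits and 3 glycogen enzymes. All 36 symbols matched an Ensembl gene of the count table, which held 55471 genes, and all 36 passed the filter on low counts in every comparison. RNA was sequenced from embryoid bodies (EBs), the aggregates in which mouse embryonic stem (ES) cells begin to differentiate, in 3 groups of 3 libraries. WT EBs came from wild-type ES cells of the E-14 line, KO EBs from Tnfaip2-/- ES cells, and KO + PA/PC EBs from the same Tnfaip2-/- cells given 8 μM palmitic acid (PA), a saturated fatty acid, and 8 μM palmitoyl-L-carnitine (PC), its carnitine ester. All EBs were harvested after 3 days of in vitro differentiation, and no WT library with PA/PC was analysed here. The knockout is 1 CRISPR/Cas9 clone with an out-of-frame edit, so the genotype and the clone cannot be told apart. The study's methods describe EB formation in ES cell medium without the agents and in MEF medium with them, so that the agents and a change of medium cannot be told apart either.

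Glycolysis splits glucose to pyruvate in the cytosol and yields ATP without oxygen. Lactate dehydrogenase then reduces pyruvate to lactate, which monocarboxylate transporters export, or the mitochondrial pyruvate carrier and the pyruvate dehydrogenase complex pass it on as acetyl-CoA, a step that pyruvate dehydrogenase kinases switch off. Several steps have isoforms encoded by separate genes that differ in tissue, kinetics or regulation, and many glycolytic genes are known targets of the hypoxia-inducible factors. Pluripotent stem cells are known for a high rate of glycolysis, and the balance with mitochondrial oxidation shifts as they leave the naive state.

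Total counts ranged from 27362913 to 28914312 per library, and replicates lay close together, with a common biological coefficient of variation of 2.09% to 2.65% over all genes. The study calls the libraries biological replicates and, for KO with and without PA/PC, independent pools of EBs, while the labels give no source per replicate, so p-values measure the spread between these libraries. Tnfaip2 itself had between 5 and 25 counts in every library, KO or not, too few to check the genotype labels. Levels are given as scaled CPM, the CPM computed with library sizes that TMM scaled over the 9 libraries, and changes as log2 fold changes of edgeR's quasi-likelihood test. With library totals in place of TMM scaling, the median change over all genes tested moved on the log2 scale from -0.02 to -0.18 in both comparisons that involve PA/PC, and the calls over all genes from 6801 higher and 7246 lower to 5317 and 8684 (KO + PA/PC versus KO) and from 5693 and 6067 to 3616 and 8341 (KO + PA/PC versus WT). Members whose direction turns under that scaling are named as such. Naive pluripotency genes (summed between 1360 and 1393 scaled CPM in WT, 2801 and 2820 in KO, 1018 and 1036 in KO + PA/PC), formative and primed epiblast genes (472 to 478, 362 to 376 and 1108 to 1144), shared pluripotency genes (1835 to 1925, 2051 to 2097 and 2339 to 2452), endoderm genes (1724 to 1823, 952 to 964 and 315 to 319) and neuroectoderm genes (189 to 196, 113 to 119.9 and 309.8 to 315) differed between the groups without overlap. The sums hide genes that went the other way. In KO, 10 of the 12 endoderm genes fell and 2 (Afp and Ttr) rose. Of the 5 neuroectoderm genes 4 fell and 1 (Tubb3) rose, and of the 4 shared pluripotency genes 2 rose and 1 fell. Sparc (686 in WT) and Col4a1 (480) were the largest parts of the endoderm sum. All 4 formative and primed genes fell in KO and rose with PA/PC, the direction of most members, whereas all 7 naive genes did the reverse. Of blood and endothelium genes, the embryonic haemoglobin Hbb-bh1 was at 0 counts in every library. Pecam1 of that list averaged 77.6, 133 and 28.7 scaled CPM in WT, KO and KO + PA/PC. Primitive streak and mesoderm genes summed to 39.2 to 42.6, 34.2 to 35.7 and 54.1 to 56.9 in that order. Of the 6 tested, 2 rose and 3 fell in KO, and 4 rose and 2 fell with PA/PC. T averaged 1.83, 0.281 and 16.7, and Kdr 1.86, 6.18 and 0.562. Heart and skeletal muscle genes were low, and their KO and KO + PA/PC sums overlapped. The part of these markers in the members' changes was not tested. In such bulk RNA, fewer cells of a type and less RNA per cell cannot be told apart.

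Because many of these genes moved together, the 250 bases before their annotated starts were read from RefSeq (GRCm38.p6), where 35 of the 36 had at least 1 window. The words ACGTG and GCGTG, the core of the element that hypoxia-inducible factors are known to bind, were searched on both strands. At least 1 of them was in 29 of these 35 genes, and Gpi1, Tpi1, Eno2, Dlat, Gys1 and Gbe1 held neither. A gene was counted when any of its windows held a match, and the share by gene over all genes was not computed. By window, 75.0% of the 52 member windows and 38.6% of all 32851 windows held either word. Windows of 1 gene can overlap and count the same match more than once, as for Aldoa, Eno1 and Pfkm. The 52 member windows belong to 35 genes and the 32851 windows to 27025 genes. ACGTG was in 38.5% of member windows against 16.6% of all, GCGTG in 53.8% against 28.2%, and CACGTG, which overlaps ACGTG and reads the same on both strands, in 11.5% against 6.02%. Member windows were also richer in G and C (median 61.6% against 52.4%), and the part of base composition in these shares was not tested. Printed 5′ to 3′ are 4 windows, for Ldha the first. Some were chosen because they belong to the lactate dehydrogenase pair that moved in opposite directions. The others belong to the glycogen genes with the largest rise and the largest fall under PA/PC among the members. Capitals mark every match to either word on either strand. Of the 2 windows of Ldha, at its 2 listed starts, the first (chr7:46845554-46845803, plus strand) held 5 matches, of which 4 were both strands of 2 copies of CACGTG, and the second, not printed, held 1. The Ldhb window (chr6:142507958-142508207, minus strand) held 1, the Pygl window (chr12:70227684-70227933, minus strand) 2 and the Gbe1 window (chr16:70313699-70313948, plus strand) 0. A match is only a run of letters, and its absence says nothing of a factor.
Ldha: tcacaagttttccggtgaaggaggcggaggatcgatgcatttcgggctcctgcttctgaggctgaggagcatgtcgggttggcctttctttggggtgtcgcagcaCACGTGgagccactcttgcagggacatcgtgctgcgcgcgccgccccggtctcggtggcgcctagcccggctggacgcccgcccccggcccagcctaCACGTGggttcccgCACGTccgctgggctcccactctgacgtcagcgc
Ldhb: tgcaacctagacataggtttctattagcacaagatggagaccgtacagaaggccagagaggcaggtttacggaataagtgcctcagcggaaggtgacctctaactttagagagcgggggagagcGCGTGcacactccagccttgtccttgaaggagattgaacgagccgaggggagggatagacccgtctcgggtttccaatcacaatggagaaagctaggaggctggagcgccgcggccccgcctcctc
Pygl: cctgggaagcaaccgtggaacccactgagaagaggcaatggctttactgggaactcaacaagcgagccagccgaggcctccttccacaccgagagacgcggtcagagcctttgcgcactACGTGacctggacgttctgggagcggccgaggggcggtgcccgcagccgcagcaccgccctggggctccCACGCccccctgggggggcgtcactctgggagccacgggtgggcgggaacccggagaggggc
Gbe1: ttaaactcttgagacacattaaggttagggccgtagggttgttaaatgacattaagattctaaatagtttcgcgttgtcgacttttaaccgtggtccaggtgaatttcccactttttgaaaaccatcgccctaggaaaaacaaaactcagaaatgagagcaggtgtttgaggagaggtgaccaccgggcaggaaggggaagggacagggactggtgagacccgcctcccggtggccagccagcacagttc

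Most of the 36 genes were lower in KO EBs than in WT EBs. In KO versus WT, 26 members fell, 8 rose and 2 (Slc2a3 and Slc16a1) did not pass an adjusted p of 0.05 in edgeR. Over all 17355 genes tested, 73.8% were called, 36.8% higher and 37.1% lower. The median log2 fold change of the members was -0.31, beside -0.01 over all genes. At least a 2-fold change was called for 9 members, all lower, against 6.90% of all genes called 2-fold lower and 8.86% called 2-fold higher. The libraries of the groups did not overlap for 34 members, and for 75.2% of all genes.

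Most of the 36 genes were higher in KO EBs with PA/PC than without. In KO + PA/PC versus KO, 25 members rose, 8 fell and 3 (Pfkfb4, Pdk2 and Mpc2) were not called, against a background of 81.8% of 17167 genes called, 39.6% higher and 42.2% lower. The members' median was 0.69, beside -0.02 over all genes. Changes of at least 2-fold were called for 14 members that rose and 3 that fell, where 9.40% of all genes rose and 18.4% fell that far. Groups did not overlap for 34 members, and for 82.2% of all genes. In KO + PA/PC versus WT, 23 members were higher, 11 lower and 2 (Eno2 and Ldhb) not called, with 70.6% of 16655 genes called, 34.2% higher and 36.4% lower; the members' median was 0.25, beside -0.02. Only 4 members differed by at least 2-fold there, Ldha, Eno1 and Tpi1 upward and Pygl downward, where 2.25% of all genes were called 2-fold higher and 11.4% 2-fold lower; with library totals Eno1 (0.91) and Tpi1 (0.85) stayed under that size. Groups did not overlap for 32 members, and for 72.6% of all genes. The counts of KO + PA/PC versus WT depend on scaling. With library totals, Hk2, Pfkm and Dlat lost their call in it, and Eno2, Ldhb and Pdha1 were called lower. These comparisons share libraries, so each is given for its own values.

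**Figure D1:**
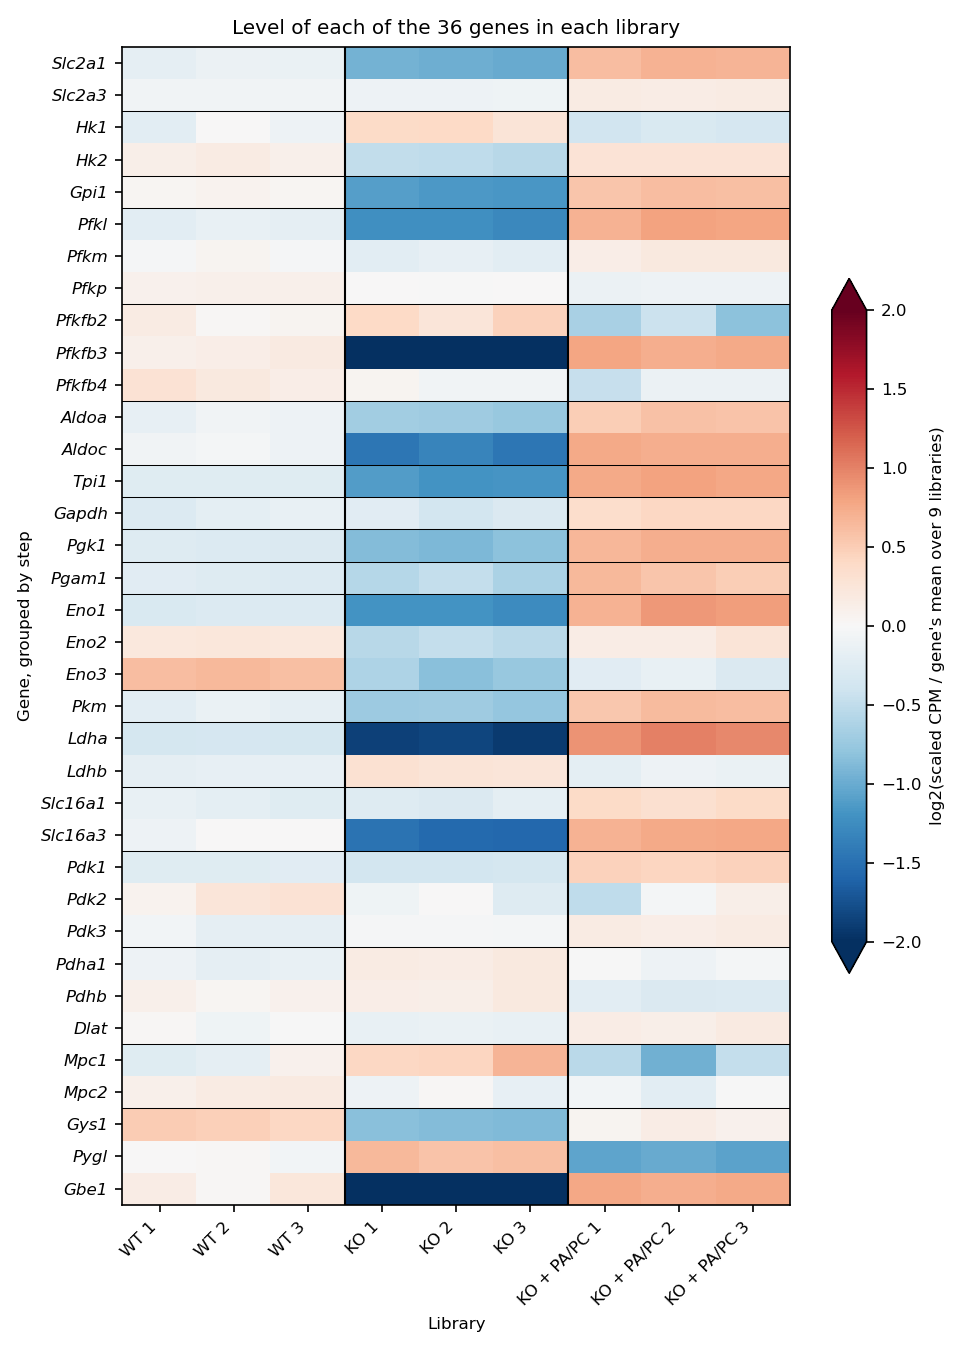
Level of each of the 36 genes (rows, grouped by step) in each of the 9 libraries (columns), coloured by log2 of the scaled CPM over the gene's mean across the libraries, with colours capped at -2 and 2. Most rows are blue in the 3 KO libraries and red in the 3 KO + PA/PC libraries, while Hk1, Pfkfb2, Ldhb, Pdha1, Pdhb, Mpc1 and Pygl are highest in KO.

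Summed over the 36 genes, the level was between 16555 and 16985 scaled CPM in WT, between 12085 and 12278 in KO and between 24890 and 25943 in KO + PA/PC. As a percent of all counts, without TMM scaling, this was between 1.73% and 1.76%, 1.26% and 1.28%, and 2.31% and 2.40%, in the same order of groups. The 16 genes from hexokinase to pyruvate kinase summed to between 8084 and 8421 scaled CPM in WT, 5183 and 5366 in KO and 12714 and 13498 in KO + PA/PC. The 3 subunits of the pyruvate dehydrogenase complex summed to 353 to 374 in WT, 393 to 404 in KO and 354 to 373 in KO + PA/PC, where WT and KO + PA/PC libraries overlapped. As a percent of all counts they were at 0.0366% to 0.0391% in WT, 0.0408% to 0.0421% in KO and 0.0328% to 0.0346% in KO + PA/PC, so that without TMM scaling these groups did not overlap.

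Glucose enters mouse ES cells mainly through GLUT1, encoded by Slc2a1, and the high-affinity transporter GLUT3, encoded by Slc2a3. Slc2a1 was at 1539, 1614 and 1592 scaled CPM in the WT libraries, 901, 886 and 866 in KO and 2687, 2813 and 2803 in KO + PA/PC. The 3 groups did not overlap. Slc2a1 fell in KO by 1.79-fold (log2 fold change -0.84 ± 0.020 SE, edgeR adjusted p = 1.28e-27) and rose with PA/PC by 3.12-fold (1.64 ± 0.023, adjusted p = 5.86e-37). Slc2a3 moved less: it was at 4165, 4181 and 4165 in WT, 4085, 4073 and 4119 in KO and 4894, 4874 and 4923 with PA/PC. Its change in KO was not called (-0.03 ± 0.016, edgeR adjusted p = 0.0989) although the libraries did not overlap, and it was called without WT replicate 1 (-0.03, adjusted p = 0.0399), while its rise with PA/PC was 1.19-fold.

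Hexokinase traps glucose as glucose-6-phosphate, and its 2 listed isoforms moved in opposite directions. Hk2, the regulated isoform, was at 337, 347 and 333 in WT, 219.5, 218 and 210.2 in KO and 374, 377 and 377 in KO + PA/PC. The broadly expressed Hk1 was at 51.8, 60.4 and 55.9 in WT, 77.8, 79.3 and 71.8 in KO and 46.0, 48.6 and 47.2 in KO + PA/PC. For both genes the 3 groups did not overlap, KO being lowest for Hk2 and highest for Hk1. In KO, Hk2 fell (-0.65 ± 0.025) and Hk1 rose (0.44 ± 0.042), and with PA/PC Hk2 rose (0.80 ± 0.026) and Hk1 fell (-0.69 ± 0.040), each called in edgeR. Against WT, Hk1 in KO + PA/PC was lower (-0.25 ± 0.047), and Hk2 was higher by a change (0.14 ± 0.027) that turned to -0.02, not called, with library totals. Gpi1, which converts glucose-6-phosphate to fructose-6-phosphate, was at 944, 975 and 951 in WT, 431, 418 and 414 in KO and 1357, 1422 and 1400 in KO + PA/PC. It fell 2.27-fold in KO and rose 3.30-fold with PA/PC. Another annotated gene, Gm26762, overlaps 11.5% of its exon length, so its level is less certain than its replicates are close.

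Phosphofructokinase commits the sugar to glycolysis, and the larger changes lay in 1 of its 3 genes. The liver-type gene Pfkl was at 630.4, 663 and 645 in WT, 314, 312 and 301 in KO and 1183, 1279 and 1270 in KO + PA/PC. It fell 2.10-fold in KO (-1.07 ± 0.023, edgeR adjusted p = 4.74e-29) and rose 4.01-fold with PA/PC (2.01 ± 0.027, adjusted p = 1.47e-37). The muscle-type Pfkm and the platelet-type Pfkp passed the test too, with changes of -0.20 and -0.09 in KO and of 0.37 and -0.12 with PA/PC. Pfkp was at 571, 577 and 574 in WT, 540.4, 537 and 541 in KO and 496, 499.6 and 501 in KO + PA/PC, so it fell in both comparisons without overlap of the groups. The Pfkm difference between KO + PA/PC and WT (0.16 ± 0.032) turned to -0.002 with library totals.

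Fructose-2,6-bisphosphate is the strongest known activator of phosphofructokinase, and bifunctional enzymes make and remove it. Pfkfb3, whose enzyme favours synthesis, was at 58.8, 60.4 and 62.0 scaled CPM in WT, 11.7, 11.3 and 11.6 in KO and 95.3, 91.0 and 92.5 in KO + PA/PC. The groups did not overlap, and the lowest WT library was several times the highest KO library. It fell 5.24-fold in KO (-2.39 ± 0.048, edgeR adjusted p = 5.27e-30) and rose 8.04-fold with PA/PC (3.01 ± 0.046, adjusted p = 7.69e-36). These were the largest changes among the 36 genes in both comparisons, closely followed by Gbe1. Pfkfb2 went the other way, at 10.2, 9.24 and 9.41 in WT, 12.1, 10.8 and 12.5 in KO and 5.83, 6.76 and 5.14 in KO + PA/PC, a rise of 1.22-fold and a fall of 2.00-fold. Exons of Gm29427 and Yod1 overlap 19.5% of its exon length. Pfkfb4 was low throughout, between 3.92 and 6.66; it fell in KO (-0.23 ± 0.092, edgeR adjusted p = 0.0227), a call lost without KO replicate 2 (-0.21), KO replicate 3 (-0.21) or WT replicate 1 (-0.19), and its difference with PA/PC was not called (-0.20 ± 0.11, adjusted p = 0.0856) but was with library totals (-0.37).

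From aldolase to pyruvate kinase, all 10 genes fell in KO and rose with PA/PC, by different sizes. Tpi1, which interconverts the triose phosphates, was at 539.8, 536 and 536 in WT, 293, 279.5 and 280.4 in KO and 1072, 1108 and 1086 in KO + PA/PC. The broadly expressed enolase Eno1 was at 340.2, 349.7 and 348 in WT, 184, 184 and 176 in KO and 685, 770.3 and 749 in KO + PA/PC. In both genes the KO libraries lay below all others and the KO + PA/PC libraries above all others, with falls of 1.89-fold and 1.91-fold and rises of 3.82-fold and 4.04-fold over KO.

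Aldolase cleaves fructose-1,6-bisphosphate. Its main gene Aldoa was at 1982, 2093 and 2057 in WT, 1369, 1347 and 1312 in KO and 3108, 3332 and 3282 in KO + PA/PC, a fall of 1.52-fold and a rise of 2.41-fold. Aldoc, known best from brain, was at 35.2, 36.1 and 34.6 in WT, 13.6, 14.8 and 13.6 in KO and 62.9, 61.2 and 61.2 in KO + PA/PC, and it fell 2.52-fold and rose 4.40-fold. Neither aldolase had overlapping groups. Pgk1, the first ATP-yielding step, was at 81.5, 81.0 and 79.8 in WT, 53.8, 52.6 and 55.2 in KO and 155, 161 and 162 in KO + PA/PC. The pyruvate kinase gene Pkm was at 2171, 2285 and 2222 in WT, 1523, 1530 and 1472 in KO and 3662, 3913 and 3874 in KO + PA/PC. Both fell in KO (-0.59 ± 0.034 and -0.56 ± 0.020) and rose with PA/PC (1.56 ± 0.033 and 1.34 ± 0.024). The counts do not separate the splice forms of Pkm.

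Pgam1, the phosphoglycerate mutase, was at 37.0, 36.2 and 35.8 in WT, 29.0, 31.1 and 27.9 in KO and 68.0, 63.6 and 61.2 in KO + PA/PC, a fall (-0.31 ± 0.046) and a rise (1.13 ± 0.046) with no overlap. Gapdh, often used as a reference gene, was at 152, 162 and 167 in WT, 158, 143 and 152 in KO and 235, 245 and 246 in KO + PA/PC. WT and KO libraries overlapped, and its small fall in KO (-0.09 ± 0.032, edgeR adjusted p = 0.0147) lost its call both without KO replicate 2 (-0.05, adjusted p = 0.221) and when WT replicate 3 was left out (-0.06, adjusted p = 0.117). It rose with PA/PC (0.68 ± 0.031, edgeR adjusted p = 3.21e-21). Only reads that mapped to 1 place were counted. Of the 51-base words (the length of a read) in their exons, 53.8% of those of Pgk1, 36.1% of those of Pgam1, 25.9% of Eno1, 25.4% of Pkm and 25.0% of Gapdh occur in other annotated genes, so the levels of these genes are understated by an unknown amount.

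The neuronal enolase Eno2 and the muscle enolase Eno3 fell in KO as Eno1 did but differed from it with PA/PC. Eno2 was at 44.6, 45.2 and 44.8 in WT, 26.4, 27.7 and 26.7 in KO and 43.0, 43.0 and 46.4 in KO + PA/PC; against WT its treated libraries overlapped and the change was not called (-0.03 ± 0.042, edgeR adjusted p = 0.517), though with library totals it was (-0.20). Eno3 was at 31.6, 32.3 and 31.3 in WT, 13.4, 11.6 and 12.2 in KO and 17.5, 18.6 and 16.9 in KO + PA/PC, so that it rose only 1.42-fold with PA/PC and stayed below WT (-0.85 ± 0.053, adjusted p = 3.93e-13).

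The 2 lactate dehydrogenase subunits, of which the A subunit is known to favour lactate formation and the B subunit the reverse, moved in opposite directions. Ldha was at 912, 924 and 919 scaled CPM in WT, 319, 325 and 309.8 in KO and 2177, 2337 and 2279 in KO + PA/PC. Ldhb was at 269.5, 274 and 273 in WT, 378, 368 and 363 in KO and 266, 287 and 279 in KO + PA/PC. All KO libraries were thus the lowest for Ldha and the highest for Ldhb, and for Ldhb the WT and KO + PA/PC libraries overlapped. Ldha fell 2.89-fold in KO (-1.53 ± 0.022, edgeR adjusted p = 4.31e-34), rose 7.10-fold with PA/PC (2.83 ± 0.027, adjusted p = 4.36e-42) and was 2.45-fold above WT (1.29 ± 0.026, adjusted p = 4.76e-23). Ldhb rose 1.36-fold in KO (0.44 ± 0.023, adjusted p = 3.8e-18) and fell 1.34-fold with PA/PC (-0.42 ± 0.027, adjusted p = 1.88e-16). Its difference between KO + PA/PC and WT was not called (0.02 ± 0.029, edgeR adjusted p = 0.568), and with library totals it was -0.15 and called.

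Lactate leaves through MCT4, encoded by Slc16a3, while MCT1, encoded by Slc16a1, carries lactate and pyruvate both ways. Slc16a3 was at 341, 368 and 367 in WT, 131, 124 and 122 in KO and 589.7, 619 and 621 in KO + PA/PC. It fell 2.85-fold in KO (-1.51 ± 0.029, edgeR adjusted p = 2.42e-30) and rose 4.83-fold with PA/PC (2.27 ± 0.029, adjusted p = 2.54e-38). Slc16a1 was at 295, 284 and 277 in WT and 273, 267 and 287 in KO, where the libraries overlapped and no change was called (-0.05 ± 0.027, edgeR adjusted p = 0.0728; -0.08 and called without KO replicate 3 or without WT replicate 3), and at 427, 410.4 and 425 with PA/PC, a rise of 1.52-fold.

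Of the 8 genes that control or carry the entry of pyruvate into mitochondria, 3 rose with PA/PC, 3 fell and 2 were not called, near the background of 39.6% higher and 42.2% lower. Of the kinases that inactivate pyruvate dehydrogenase, Pdk1 was at 270.4, 269 and 271 in WT, 248, 248 and 251 in KO and 439.5, 430.2 and 439.6 in KO + PA/PC, a rise of 1.75-fold over KO (0.81 ± 0.025, edgeR adjusted p = 2.45e-26). Pdk3 changed by 0.12 in KO and 0.16 with PA/PC, the latter at -0.003 and not called with library totals, and the former lost its call without WT replicate 3 (0.09). Pdk2 was low, between 5.01 and 8.72; it fell in KO (-0.31 ± 0.087), while its difference with PA/PC was not called (-0.02 ± 0.11, edgeR adjusted p = 0.843), and it stood below WT in KO + PA/PC (-0.33 ± 0.11), a call lost without KO + PA/PC replicate 1 (-0.17).

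The complex itself turned in different directions by subunit. Pdha1, the catalytic E1 alpha subunit, was at 149, 140.2 and 144 in WT, 179, 177 and 183 in KO and 159, 149 and 156 in KO + PA/PC. The E1 beta subunit Pdhb was at 114, 109.7 and 113 in WT, 117, 116 and 123 in KO and 92.0, 87.0 and 88.4 in KO + PA/PC. The E2 core gene Dlat was at 111, 103 and 109 in WT, 99.2, 100.4 and 99.1 in KO and 122, 119 and 124 in KO + PA/PC. KO was highest for both E1 subunits and lowest for Dlat. With PA/PC, Pdha1 fell 1.16-fold and Pdhb 1.33-fold while Dlat rose 1.22-fold, each called in edgeR. In KO, Pdha1 rose (0.31 ± 0.028), Dlat fell (-0.11 ± 0.031) and Pdhb rose by a change (0.07 ± 0.030) whose call was lost without KO replicate 3 (0.05), WT replicate 2 (0.05) or WT replicate 3 (0.07). Pdha1 stood 0.09 ± 0.034 above WT in KO + PA/PC with overlapping libraries. This difference turned to -0.08 with library totals and was not called without either of KO + PA/PC replicates 1 and 3 (0.07 and 0.08) or WT replicates 2 and 3 (0.06 and 0.09). Dlat stood 0.17 ± 0.035 above WT, which was 0.002 and not called with library totals. Exons of Map3k15 overlap 16.1% of the exon length of Pdha1. Both subunits of the carrier, which brings pyruvate across the inner membrane, were measured at low levels. Mpc1 was at 2.33, 2.46 and 2.95 in WT, 3.71, 3.74 and 4.42 in KO and 1.90, 1.42 and 1.99 in KO + PA/PC, from 36 to 133 counts per library, and it rose 1.53-fold in KO and fell 2.24-fold with PA/PC. Another annotated gene, 4930506C21Rik, overlaps 23.1% of its exon length. Mpc2 fell in KO (-0.24 ± 0.069) and was not called with PA/PC (-0.01 ± 0.078, edgeR adjusted p = 0.905).

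The 3 glycogen enzymes also divided. Gbe1, the branching enzyme, was at 29.9, 27.4 and 31.5 scaled CPM in WT, 5.56, 5.67 and 6.38 in KO and 45.8, 44.6 and 45.5 in KO + PA/PC. The synthase gene of tissues other than liver, Gys1, was at 99.2, 97.7 and 93.2 in WT, 39.0, 38.1 and 37.7 in KO and 72.8, 77.2 and 74.1 in KO + PA/PC. The liver-type phosphorylase gene Pygl, whose enzyme releases glucose-1-phosphate, was at 15.1, 15.3 and 14.6 in WT, 23.8, 22.4 and 22.8 in KO and 7.27, 7.47 and 7.17 in KO + PA/PC. Libraries of different groups did not overlap for any of the 3: KO was lowest for both genes of synthesis and highest for Pygl. Gbe1 fell 5.05-fold in KO (-2.34 ± 0.070, edgeR adjusted p = 5.52e-25) and rose 7.68-fold with PA/PC (2.94 ± 0.062, adjusted p = 1.13e-31). Gys1 fell 2.53-fold and rose 1.95-fold, and in KO + PA/PC it stayed below WT (-0.38 ± 0.037, adjusted p = 1.52e-09). Pygl rose 1.53-fold in KO, fell 3.15-fold with PA/PC (-1.66 ± 0.068, adjusted p = 1.26e-22) and was then 2.06-fold below WT. Pygl is not the only phosphorylase gene, and 2 others outside the members, Pygb and Pygm, were named after their values were seen. Pygb was higher than Pygl, averaging 41.8, 62.5 and 40.9 scaled CPM in WT, KO and KO + PA/PC. Its WT and KO + PA/PC libraries overlapped. Pygm averaged 5.92, 5.64 and 2.45 in the same order.

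**Figure D2:**
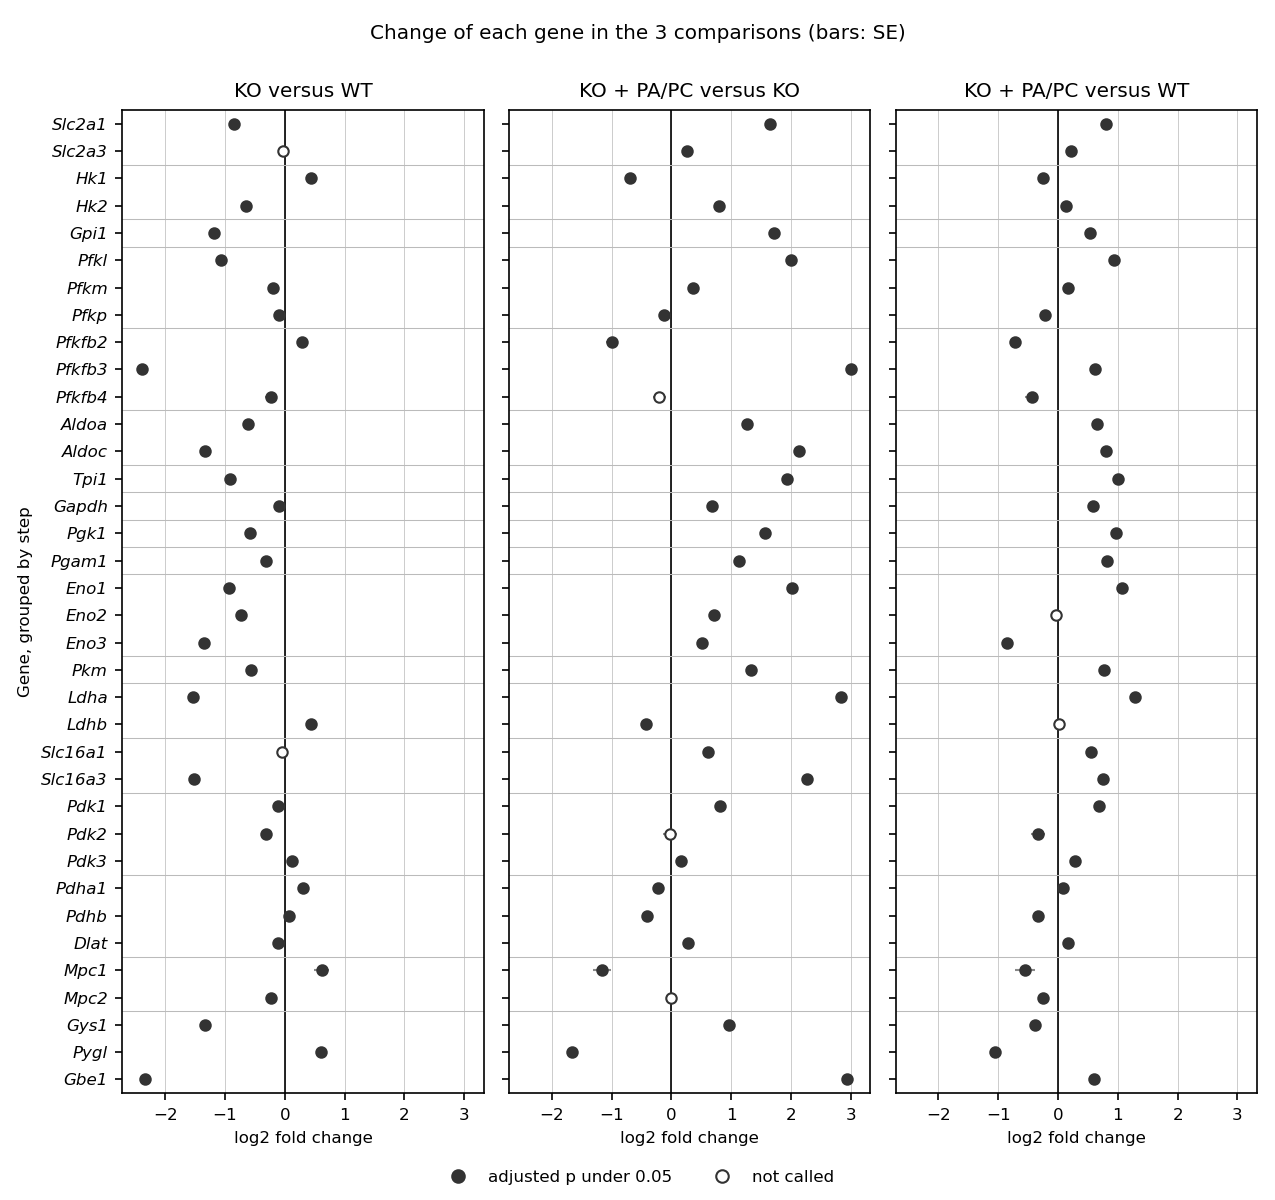
log2 fold change of each of the 36 genes (points, with SE bars that are mostly hidden by the points) in KO versus WT, KO + PA/PC versus KO and KO + PA/PC versus WT. Filled points passed an adjusted p of 0.05 in edgeR, 34, 33 and 34 genes in the order of the panels, and small changes in the panels with PA/PC turn with library totals for Pdk3 (versus KO) and for Hk2, Pfkm, Ldhb and Pdha1 (versus WT).

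Because isoforms of a step differ in length, their make-up was compared as the percent of reads per kb of exon over the step's listed genes. All 51 comparisons of an isoform's share between groups, over 9 steps, gave libraries that did not overlap. No background was computed for shares. Levels of all genes did not overlap for 75.2% (KO versus WT), 82.2% (KO + PA/PC versus KO) and 72.6% (KO + PA/PC versus WT). Shares of a step add up to the whole and follow from the levels given above, so the comparisons are not independent. Each comparison of a share had an exact two-sided permutation p of 0.1 (adjusted 0.1). That is the smallest that 3 against 3 libraries allow, so no share could pass 0.05. Of lactate dehydrogenase reads, Ldha held 61.6% ± 0.0876 (SD, n = 3) in WT libraries, 29.0% ± 0.491 in KO libraries and 79.5% ± 0.0208 in KO + PA/PC libraries, so Ldhb was the larger part in KO alone among the 3 groups. Pfkfb3 held 75.3% ± 1.45 of the 3 listed genes of its step in WT, 35.95% ± 0.927 in KO and 87.4% ± 1.35 in KO + PA/PC. Among these 3 in KO, Pfkfb2 was at 38.2% ± 1.61, close to Pfkfb3, although all 3 were low. Pfkfb1, not among the members, was left out of these shares. Per kb of exon it was at 4.54, 5.58 and 4.71 scaled CPM in WT, KO and KO + PA/PC. Pfkfb3 was at 7.99, 1.525 and 12.3 in that order. In KO, Pfkfb1 thus stood above each of the 3. Reads shared with other genes were not counted, and 17.3% of the 51-base words of Pfkfb2, 20.4% of those of Ldhb and 8.83% of those of Ldha were shared, so the shares carry that limit.

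Slc16a3 held 51.1% ± 1.81 of monocarboxylate transporter reads in WT, 27.6% ± 1.24 in KO and 54.7% ± 1.10 in KO + PA/PC. Pfkl held 53.5% ± 0.285 of phosphofructokinase, 37.8% ± 0.467 and 69.0% ± 0.604 in the same order. Slc2a1 held 43.9% ± 0.562 of the 2 glucose transporters in WT, 30.9% ± 0.535 in KO and 53.9% ± 0.640 in KO + PA/PC. In these 3 steps the isoform that gained share with PA/PC was the one that had lost it in KO.

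Enolase did not have that form. Eno1 held 69.8% ± 0.298 in WT, a little more in KO (72.4% ± 0.657) and 87.5% ± 0.511 in KO + PA/PC, while Eno3 went from 19.8% ± 0.253 to 15.3% ± 0.981 and 6.51% ± 0.384. Hk2 remained the main hexokinase, at 89.7% ± 0.584, 80.2% ± 0.510 and 91.9% ± 0.175, and Aldoa held at least 98.3% of aldolase on average in every group. Pdk1 was at 57.4% ± 0.888 of the 3 kinases in WT, 54.0% ± 0.492 in KO and 64.9% ± 0.348 in KO + PA/PC, with Pdk3 making up nearly all of the rest. The shares depend on the exon lengths used, but none of the 132 differences turned its direction when counts were left undivided or divided by the longest coding transcript.

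**Figure D3:**
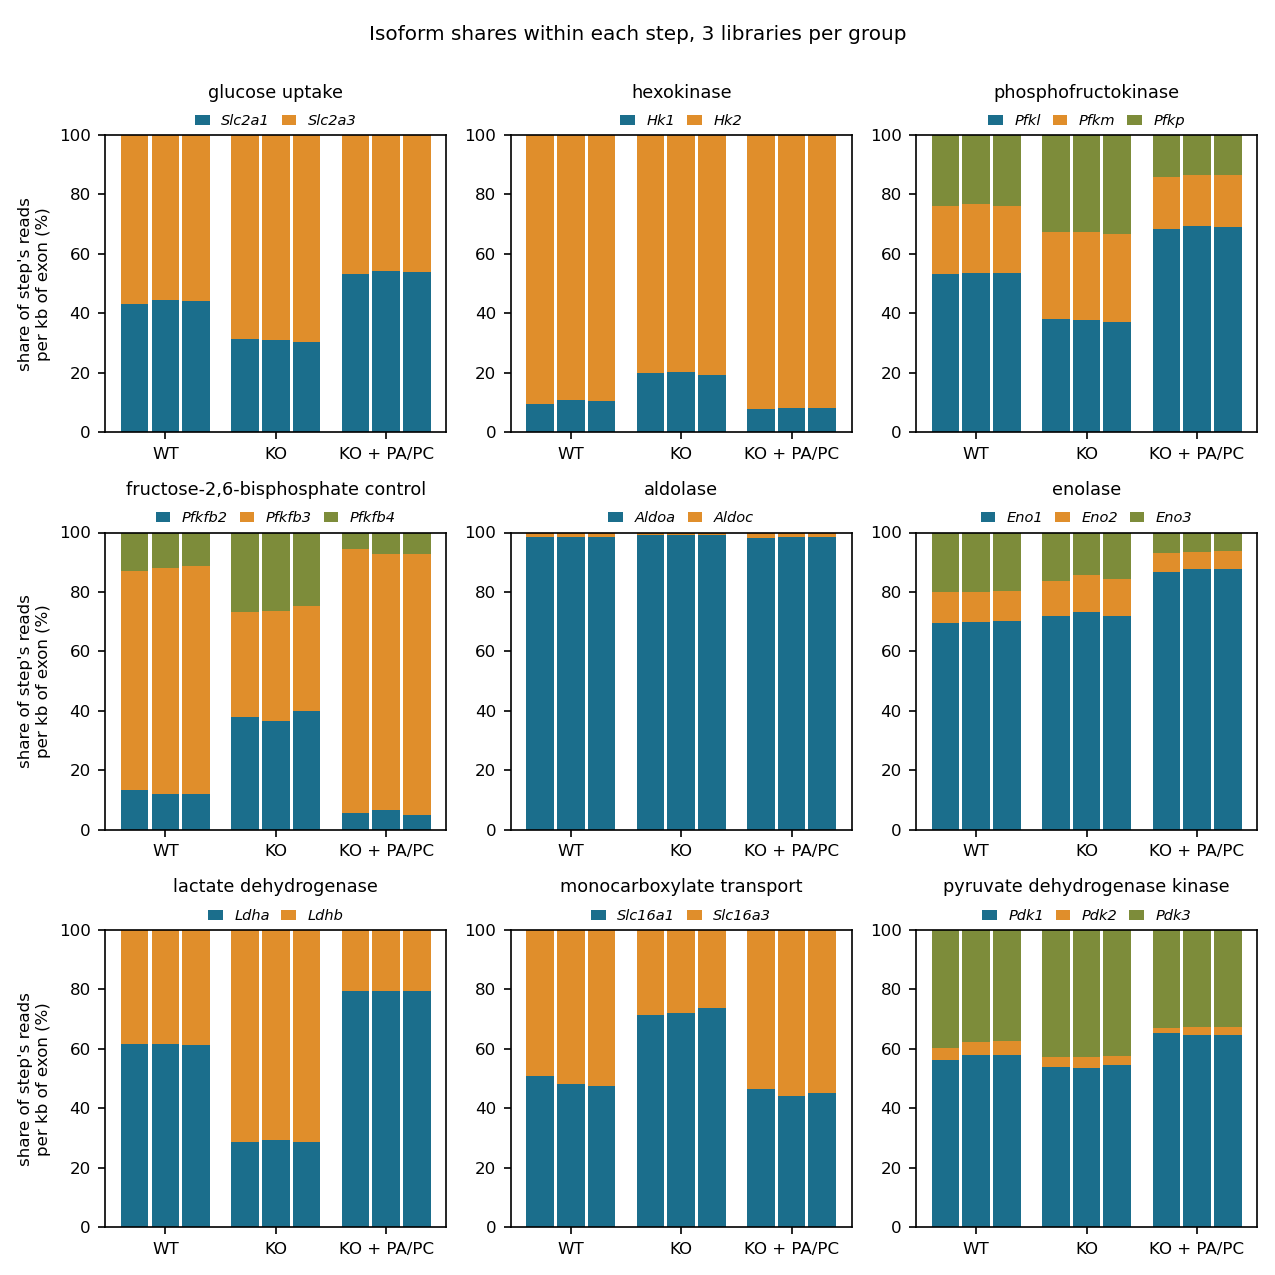
Share of each isoform in the reads per kb of exon of the listed genes of its step, in percent, with 1 stacked bar per library and 3 libraries per group in 9 panels. The Ldha share falls from 61.6% in WT to 29.0% in KO and reaches 79.5% in KO + PA/PC, and bars of 1 group are nearly equal.

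Levels of different genes can be compared only per length, and part of their order depended on the length used. Per kb of exon, the highest scaled CPM in WT (mean ± SD over 3 libraries) were those of Aldoa (702 ± 19.3), Slc2a3 (576 ± 1.30), Slc2a1 (451 ± 11.0) and Pkm (445 ± 11.5), followed by Ldha (278 ± 1.81). Per kb of the longest coding transcript, a length added after seeing the data, the order was Aldoa (1320 ± 36.4), Slc2a3 (1053 ± 2.38), Pkm (915 ± 23.6), Ldha (506 ± 3.31) and Slc2a1 (485 ± 11.8). Aldoa and Slc2a3 thus led in WT by both lengths. In KO, Slc2a3 (565 ± 3.29 per kb of exon and 1034 ± 6.02 per kb of coding transcript) stood above Aldoa (461 ± 9.97 and 867 ± 18.7), and Ldhb (236 ± 4.64 and 284 ± 5.58) above Ldha (96.1 ± 2.34 and 175 ± 4.26). In KO + PA/PC, Aldoa was first (1113 ± 40.4 and 2092 ± 75.9), while Slc2a1 ranked 2 per kb of exon (789 ± 19.9) and 5 per kb of coding transcript (849 ± 21.4). Among the lowest in WT by both lengths were Mpc1 (1.24 ± 0.157 and 2.69 ± 0.341), Pfkfb4 (1.29 ± 0.0721 and 1.80 ± 0.101) and Pfkfb2 (1.33 ± 0.0716 and 2.17 ± 0.117). The level of Pkm is also understated by the reads it shares with other genes.

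**Figure D4:**
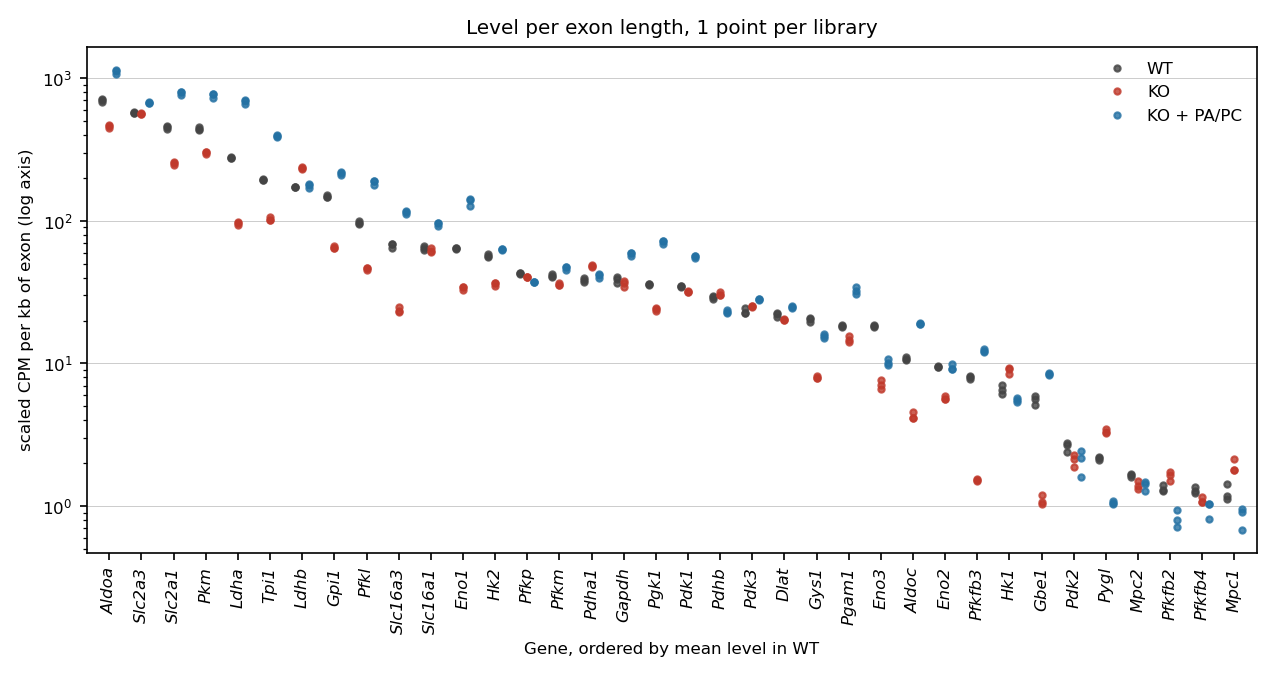
Scaled CPM per kb of exon (log axis) of each of the 36 genes, ordered by their mean in WT, with 1 point per library coloured by group; the order of genes changes in part with the longest coding transcript as length. The blue points of KO + PA/PC lie above the red points of KO for most genes, and the red points are the highest for Hk1, Ldhb, Pdha1, Pdhb, Pfkfb2, Pygl and Mpc1.

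Other genes of the same pathways were counted from a list of 82. In KO versus WT, 31 of the 75 tested rose and 28 fell, with a median of 0.02. In KO + PA/PC versus KO, 26 of 74 rose and 42 fell, with a median of -0.27. Over all genes, 39.6% rose and 42.2% fell there. In KO + PA/PC versus WT 21 of 71 were higher and 34 lower, with a median of -0.13. Over all genes, 34.2% were higher and 36.4% lower there. In KO versus WT rises and falls were thus about equally frequent, as over all genes (36.8% and 37.1%).

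Among the glycogen genes of that list, the phosphoglucomutases moved in opposite directions. Pgm1, which links glycogen to glycolysis, averaged 143 ± 3.14 scaled CPM in WT libraries, 40.8 ± 0.701 in KO libraries and 248 ± 4.85 in KO + PA/PC libraries, with SD over 3 (-1.82 ± 0.033 and 2.60 ± 0.033). Pgm2, named after its values were seen, averaged 36.6 ± 0.864, 72.9 ± 0.326 and 27.4 ± 1.25 in the same order (0.99 ± 0.036 and -1.42 ± 0.042). Phka1, a regulatory subunit of phosphorylase kinase, rose in KO (0.62 ± 0.051) and fell with PA/PC (-2.60 ± 0.071), and Ppp1r3c, a glycogen-targeting subunit of protein phosphatase 1, did the reverse (-1.50 ± 0.12 and 1.86 ± 0.12).

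The chaperones of the lactate transporters, Emb and Bsg, fell in KO (-1.61 ± 0.027 and -0.70 ± 0.022) and rose with PA/PC (2.07 ± 0.028 and 0.80 ± 0.025). Pdk4, the kinase known for its induction by fatty acids, fell with PA/PC (-1.63 ± 0.082, edgeR adjusted p = 7.23e-20), from 15.3 ± 0.730 to 4.94 ± 0.232 scaled CPM. Pdp2, a phosphatase that reactivates pyruvate dehydrogenase, rose (0.98 ± 0.041). Pdpr, a regulatory subunit of pyruvate dehydrogenase phosphatase, fell (-1.02 ± 0.067). Hkdc1, a hexokinase-like gene, fell in KO (-0.70 ± 0.071) and further with PA/PC (-2.93 ± 0.13), while Tigar, a fructose-2,6-bisphosphatase, and Pfkfb1 fell with PA/PC (-0.53 ± 0.044 and -0.25 ± 0.065).

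In the pentose phosphate pathway, Tkt and Pgls rose with PA/PC (1.10 ± 0.026 and 1.05 ± 0.039) and Tktl1 fell (-3.78 ± 0.18). Pck2, the mitochondrial enzyme that makes phosphoenolpyruvate, fell in KO (-1.39 ± 0.033) and fell again with PA/PC (-0.29 ± 0.044), and G6pc3 fell in KO (-0.58 ± 0.046). Of the minor glucose transporters, Slc2a4 fell in KO and rose with PA/PC (-0.88 ± 0.089 and 1.10 ± 0.094) and Slc2a8 moved little (0.13 ± 0.045 and -0.26 ± 0.050).

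Genes known to respond to hypoxia outside glycolysis moved with the members. All 12 of that list fell in KO (median -1.24) and all 12 rose with PA/PC (median 1.24), or 11 with library totals. Over all genes, 37.1% were called lower in KO and 39.6% higher with PA/PC. Against WT, 8 were higher, 2 lower and 2 not called in KO + PA/PC, beside 34.2% higher and 36.4% lower over all genes. The list was chosen with earlier results of these data known. The summed level of the 12 genes was between 1411 and 1438 scaled CPM in WT, 659 and 665 in KO and 2187 and 2261 in KO + PA/PC. Adm, the adrenomedullin gene, had the largest rise with PA/PC (5.40 ± 0.073) and Mxi1 the smallest (0.19 ± 0.041). Egln3 and Egln1, oxygen-sensing hydroxylases that are themselves induced by the factor, fell in KO (-2.44 ± 0.032 and -1.83 ± 0.030) and rose with PA/PC (3.85 ± 0.032 and 2.50 ± 0.031). The transcript of the factor's subunit Hif1a, named after its values were seen, was at 156 ± 7.48, 159 ± 4.21 and 191 ± 7.07 scaled CPM (SD, n = 3), not called in KO (0.02 ± 0.030, edgeR adjusted p = 0.474) and higher with PA/PC (0.26 ± 0.030), and Epas1 fell with PA/PC (-1.27 ± 0.047). The part of these genes in the members' changes was not tested.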

How the data were processed

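RNA of 9 mouse EB libraries, 3 per group, was prepared with a kit that does not mark strand and sequenced as single 51-base reads. The authors deposited 1 table of raw read counts per Ensembl gene (GRCm38) for all 9 libraries. The submitters' processing notes name bcl2fastq 2.20.0.422, STAR 2.7.2b and featureCounts 1.6.5, whereas the study's methods describe another aligner and annotation release for the KO and WT comparison; which was used for the WT columns could not be settled. Counting left out reads with more than 1 mapping position or more than 1 gene, which lowers genes with near-identical copies.

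Groups followed the sample titles. Each comparison was fitted on its own 6 libraries with edgeR 4.0.16 (R 4.3.3): genes were filtered with filterByExpr, scaled by TMM and tested with the quasi-likelihood F test, and p-values were adjusted by Benjamini-Hochberg over all genes tested, with calls at an adjusted p under 0.05. SE was taken from the log2 fold change and its F statistic. Exon lengths came from the GENCODE annotation of the same build. Isoform shares were tested by exact two-sided permutation. Promoter words were searched in RefSeq windows, and shared 51-base words among annotated transcripts. The fits were tested on simulated counts. DESeq2 1.42.0, other scalings and filters, a joint fit, a minimum fold change, a replicate block and leaving out each library were alternatives.

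The 36 genes, the other gene lists and the tests were chosen with earlier results of these data known. Other pathway genes were named by the largest change per role, up to 3, among those called with a group mean of at least 5 CPM; exceptions are marked. Total counts per library were 27362913 to 28914312, and counting error and the spread of 3 libraries set the precision.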

Additional observations from a re-analysis of the deposited data

How the results depend on the processing

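Of 1512 refitted log2 fold changes of members, 1406 kept their side of the threshold, and also their direction where they were called. The direction of changes called in neither fit was not checked. Another 93 lost their call (75 of them when a fold change of at least 2 had to be exceeded), 8 gained one and 5, called in at least 1 of the fits, turned. The turns all came with library totals in place of TMM: Pdk3 in KO + PA/PC versus KO (-0.0026), and Hk2 (-0.0246), Pfkm (-0.0024), Ldhb (-0.146) and Pdha1 (-0.0764) in KO + PA/PC versus WT. Tested against a minimum fold change of 2, the genes called in KO versus WT, KO + PA/PC versus KO and KO + PA/PC versus WT fell to 1587, 3554 and 1335 over all genes, to 9, 15 and 2 among members, to 8, 23 and 11 among other pathway genes and to 6, 7 and 1 in the hypoxia list, as this test asks for more than a nonzero change; the refits of these last lists were added after seeing the data. Without 1 library at a time, the counts ranged in the same order of comparisons from 12382 to 12820, 13785 to 14137 and 11208 to 11654 over all genes, from 32 to 34, at 33 and from 32 to 34 among members, from 54 to 60, 66 to 69 and 50 to 54 among other pathway genes, and from 11 to 12, at 12 and from 9 to 10 in the hypoxia list. DESeq2 called 11586, 13140 and 10611 genes and 32, 33 and 34 members; Pfkfb4 (adjusted p = 0.107) and Gapdh (adjusted p = 0.057) lost their call in KO versus WT. Isoform shares did not overlap in 49 of 51 comparisons with counts not divided by length, in 50 with the longest coding transcript and in 51 without each library. Correlations of the deviations of libraries with the same replicate number ran from -0.099 to 0.167 and passed 0.1 in 1 of 9 pairs, so the numbers were not taken as pairs. A replicate block gave 12587, 13822 and 12223 genes and 34, 33 and 34 members; in KO + PA/PC versus WT, where 2 of the 3 correlations were positive (0.167 and 0.0977), it lowered the common biological coefficient of variation from 2.65% to 1.21%, while in the other comparisons it raised it. Low counts limit Mpc1, with as few as 36 counts in a library.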
